A study of Mus musculus with 5 samples.

Results

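H3K27ac at 10 genes for inhibitory receptors and suppressor molecules of regulatory T (Treg) cells was examined: Pdcd1, Lag3, Tigit, Havcr2, Btla, Cd160, Entpd1, Nt5e, Ebi3 and Fgl2. All peaks of the deposited table that overlapped the GENCODE M21 span of a gene, extended by 20 kb on each side (its window), were taken as that gene's peaks. This gave 140 of the 124158 peaks of the table, for 10 of 21938 protein-coding genes. H3K27ac, the acetylation of histone H3 at lysine 27 found at active promoters and enhancers, had been mapped by CUT&Tag, in which an antibody guides the transposase Tn5 to cut and tag the DNA beside the mark.

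Treg cells (CD3+ CD4+ Foxp3-YFP+) had been sorted from the large intestine of C57BL/6 mice at 2 weeks of age. Per the methods of the study, both sexes were used except where noted. Ctrl mice were Foxp3Cre Setd2 flox/+ and KO mice were Foxp3Cre Setd2 flox/flox, so both genotypes carried the Cre that Foxp3 drives in Treg cells, and the Ctrl cells could themselves lose 1 Setd2 allele. Setd2 encodes the enzyme that trimethylates histone H3 at lysine 36 over transcribed genes. Each genotype had 2 libraries of 60000 cells, each a pool of 3 to 5 mice. A p-value here thus sets a difference against the spread between pools. For single peaks that spread was shared over peaks, and a peak's own spread did not enter. An IgG library was also listed and was not analysed here.

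The members act through several routes. PD-1 (Pdcd1), LAG-3, TIGIT, TIM-3 (Havcr2), BTLA and CD160 are surface receptors that dampen T cell activation when bound by their ligands. CD39 (Entpd1) and CD73 (Nt5e) are surface enzymes that act in sequence to turn extracellular ATP and ADP into AMP and then into adenosine, which T cells sense through an adenosine receptor, the product of Adora2a. Ebi3 is a subunit of the cytokines IL-27 and IL-35, and FGL2 is a fibrinogen-like protein that Treg cells secrete.

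Library totals lay between 2395002 and 4712473 counts in peaks, and the median peak held 8 to 13 counts. Levels are given in CPM, counts scaled to a common library total with TMM factors, and differences as log2 ratios of KO to Ctrl. Defining T cell and Treg genes (Cd3e, Cd3g, Cd4, Foxp3, Il2ra, Ctla4, Ikzf2) all had promoter or gene body peaks, with a summed level of 2319.1 to 2583.7 CPM in Ctrl and 2727.3 to 3223.5 CPM in KO. Most lists for other cells were low. CD8 T cell genes summed to 4.17 to 8.6 CPM in Ctrl and 5.59 to 8.39 CPM in KO (1 of 2 genes with such a peak, none at Cd8a), NK cell genes to 14.0 to 21.7 and 17.3 to 24.2 CPM (2 of 3, no peak at Ncr1), and B cell genes to 14.5 to 30.1 and 20.4 to 27.9 CPM (3 of 4, no peak at Ms4a1). Myeloid genes summed to 30.9 to 44.3 CPM in Ctrl and at most 36.5 CPM in KO (3 of 5, none at Lyz2 or Itgam) and epithelial genes to 43.5 to 55.4 and 47.2 to 69.3 CPM (4 of 5, none at Krt20). The stromal and endothelial list reached 562.8 to 835.6 CPM in Ctrl and 690.8 to 1045.6 CPM in KO (4 of 5, none at Col1a2), nearly all of it at Pecam1 (551.5 to 1042.2 CPM over the 4 libraries), which leukocytes also express. The part of other cells in the member values was not tested. At the targeted gene, the Setd2 window held 129.8 and 179.2 CPM in Ctrl and 100.6 and 137.8 CPM in KO. These overlapped (log2 ratio −0.37, SE 0.27, unadjusted p = 0.196 in edgeR, adjusted p = 1.0), and peak counts of H3K27ac do not measure deletion of the floxed exons.

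Promoter sequences were available for 9 of the 10 members (RefSeq, GRCm38, the assembly of mm10), as the 250 bases before each annotated start. The 4 below are shown because the loci differed most there: Pdcd1, whose start lay inside the broadest peak, Tigit, Entpd1 at its second start, where the peak began, and Cd160, which had no peak at either start. Capitals mark the letters of motif words found on either strand.
Pdcd1, chr1:94052554-94052803, minus strand: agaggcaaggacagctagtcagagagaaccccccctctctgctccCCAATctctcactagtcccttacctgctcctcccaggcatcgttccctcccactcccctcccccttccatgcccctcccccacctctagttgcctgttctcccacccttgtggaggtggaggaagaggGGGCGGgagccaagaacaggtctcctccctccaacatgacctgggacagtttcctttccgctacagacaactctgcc
Tigit, chr16:43664185-43664434, minus strand: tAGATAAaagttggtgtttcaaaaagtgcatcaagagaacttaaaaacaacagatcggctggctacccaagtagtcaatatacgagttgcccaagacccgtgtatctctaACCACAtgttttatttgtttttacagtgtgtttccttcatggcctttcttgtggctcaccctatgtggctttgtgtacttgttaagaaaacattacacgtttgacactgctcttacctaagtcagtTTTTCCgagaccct
Entpd1 second start, chr19:40659520-40659769, plus strand: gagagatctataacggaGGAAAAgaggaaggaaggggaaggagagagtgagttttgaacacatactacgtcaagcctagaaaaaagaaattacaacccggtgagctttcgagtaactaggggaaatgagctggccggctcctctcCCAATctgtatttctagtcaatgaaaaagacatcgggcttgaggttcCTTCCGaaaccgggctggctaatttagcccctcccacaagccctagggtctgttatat
Cd160 first start, chr3:96829352-96829601, minus strand: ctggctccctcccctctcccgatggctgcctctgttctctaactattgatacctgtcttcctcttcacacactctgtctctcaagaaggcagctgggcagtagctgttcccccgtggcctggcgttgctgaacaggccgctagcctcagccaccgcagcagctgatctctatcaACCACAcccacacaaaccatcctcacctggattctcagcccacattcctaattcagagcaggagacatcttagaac

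The 12 words searched included 3 of core promoters, namely the TATA box written as TATAAA, the GC box as GGGCGG and the CCAAT box. For families of transcription factors common in T cells they were TGANTCA for AP-1 factors, TGTGGT for the RUNX family, CGGAAG for the ETS family and AGATAA for GATA factors. The others were GGAAAA for NFAT proteins, TGTTTAC for forkhead factors, TTCNNNGAA for STAT proteins, and longer words for NF-kB and for the interferon response element. The Pdcd1 stretch held CCAAT and GGGCGG, words present in 33.8% and 32.7% of 32851 mouse promoter stretches of the same length. The Tigit stretch held AGATAA (9.99% of all), TGTGGT (14.0%, here on the other strand as ACCACA) and GGAAAA (20.4%, here as TTTTCC), and Cd160 held TGTGGT alone. TGTGGT also stood before the starts of Havcr2 and Btla and at the second Cd160 start, so 4 of the 9 members with a sequence carried it. Before its second start Entpd1 held the NFAT word, the CCAAT box and the ETS word CGGAAG (13.6% of all).

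The promoters differed in CpG content. Pdcd1 held 3 CpG in 250 bases, Havcr2 and Ebi3 2, Btla 4 and Tigit 5, against a median of 6 over all promoters. Fgl2 held 10 (64.4 percentile), Nt5e 21 (85.2 percentile) and the first Entpd1 start 18 (80.3 percentile), whereas the second Entpd1 start held 8. These matches describe letters in the windows and are not binding sites.

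The members spanned a wide range of H3K27ac. Per kb of window, Pdcd1 had the highest level (8.97 and 7.61 CPM per kb in Ctrl, 8.63 and 7.83 in KO) and stood at the 99.1 percentile of all 21938 protein-coding gene windows, those without a peak included. It was followed by Lag3 (mean over the 4 libraries 6.63, 98.3 percentile), Tigit (5.83, 97.4 percentile), Ebi3 (5.01, 96.2 percentile) and Nt5e (4.20, 94.3 percentile). Fgl2 (2.98 CPM per kb, 88.9 percentile) and Btla (2.29, 84.0 percentile) were intermediate. Entpd1 (1.34, 71.8 percentile) and Havcr2 (1.29, 70.7 percentile) were lower, and Cd160 was the lowest (0.495, 49.2 percentile). The 4 libraries of Pdcd1 lay above all 4 of Lag3, those of Nt5e above Fgl2, those of Btla above Entpd1 and those of Havcr2 above Cd160. The other neighbours in this order overlapped, as Lag3 did with Tigit, Tigit with Ebi3, Ebi3 with Nt5e, Fgl2 with Btla and Entpd1 with Havcr2. The order is of whole windows, which also hold peaks near the starts of other genes. Such peaks held 55.8% to 67.8% of the counts at Lag3 and 31.1% to 40.1% at Havcr2. At Ebi3 they held 79.1% to 85.3%, some of them also near its own start.

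The mark lay in different places at different members, and not all of a window's signal was at the member's own elements. Peaks within 3 kb of a start of the member were classed as promoter peaks, other peaks overlapping its span as gene body peaks, and the rest as flank peaks. Of the 140 peaks, 22 were promoter, 50 gene body and 68 flank peaks.

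**Figure D1:**
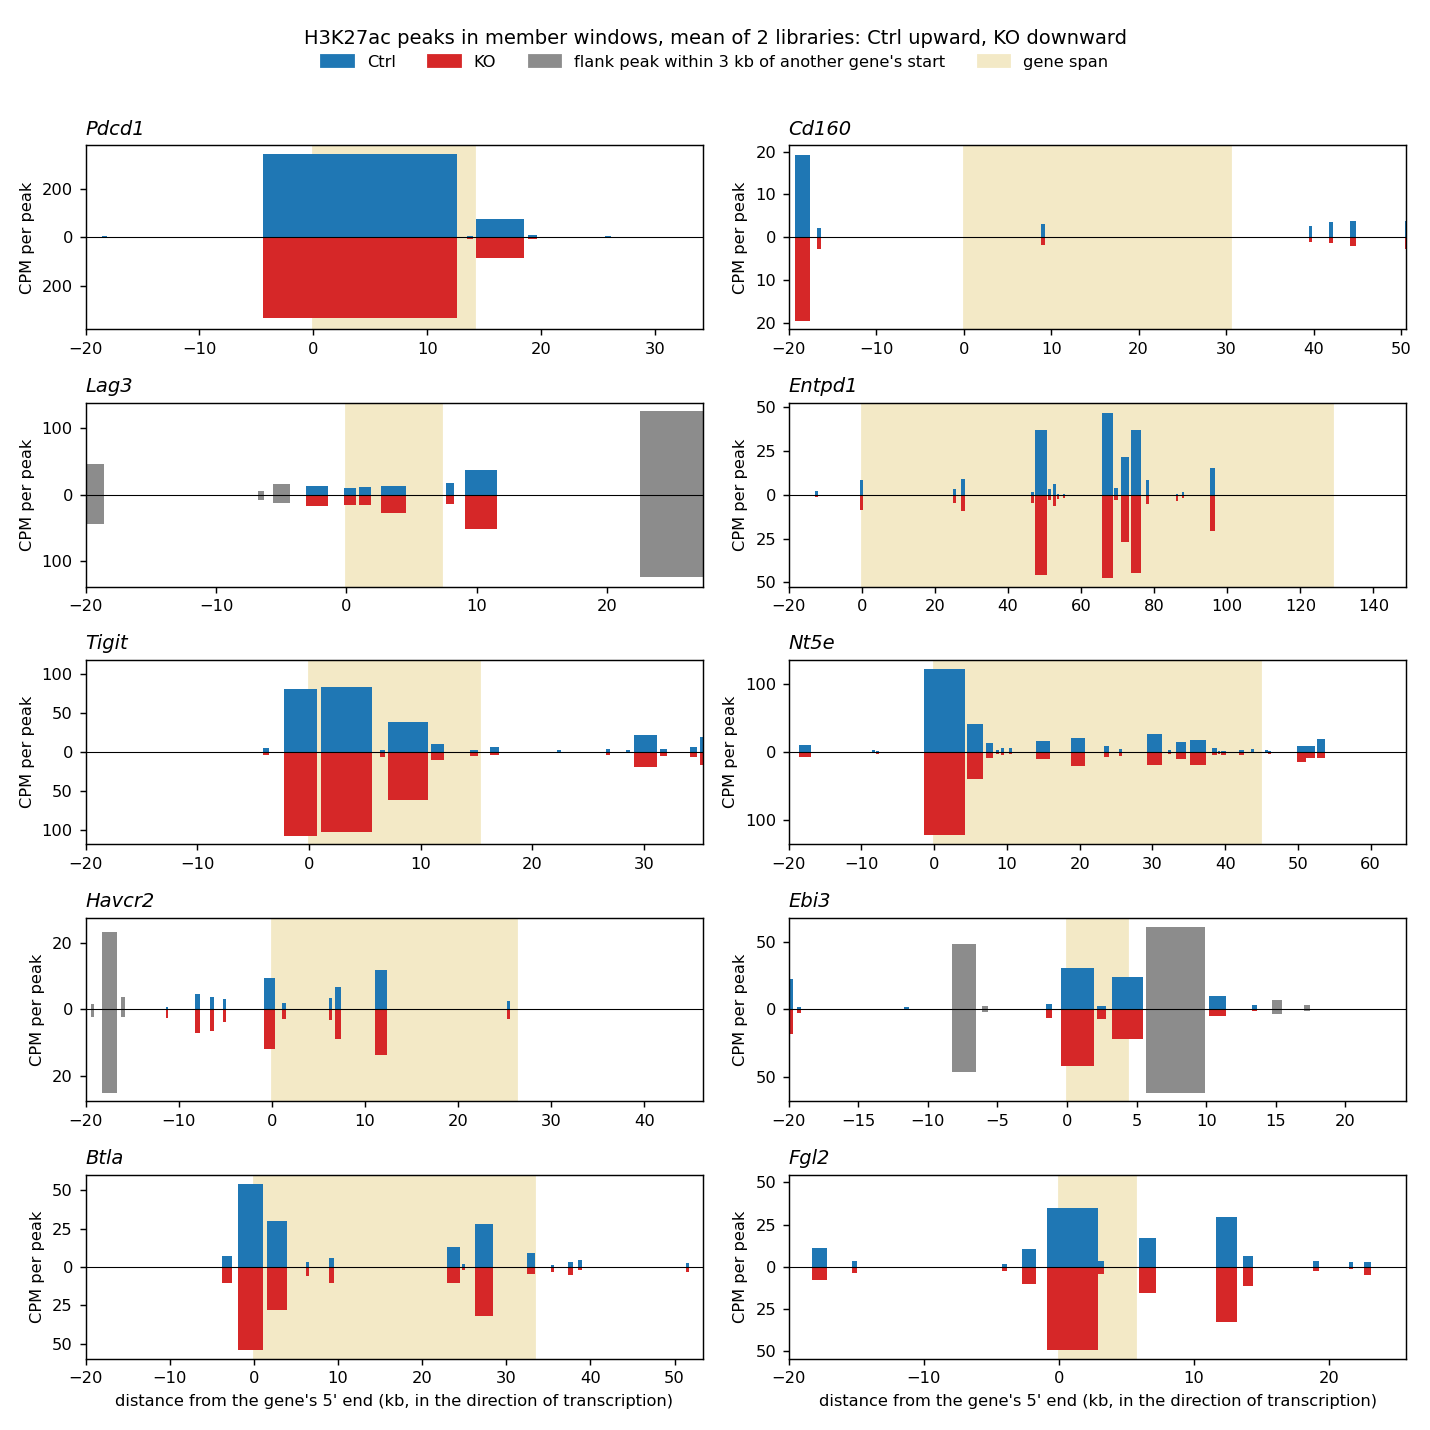
Peaks of each member window by distance from the gene's 5′ end in kb (bars are drawn at peak width, or a small minimum width, and cut at the window's edge); bar height is the mean CPM per peak of the 2 Ctrl libraries (upward) and the 2 KO libraries (downward), on a scale set for each gene. A single 17083-bp peak dominates Pdcd1, while Cd160 has none at its start and the tallest bars of Lag3, Havcr2 and Ebi3 are grey, near the starts of other genes.

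Among the receptors, Pdcd1 carried 1 promoter peak of 17083 bp (chr1:94039910-94056992), running from about 4 kb before the start over most of the gene. It held 360.6 and 326.8 CPM in Ctrl and 335.3 and 331.1 CPM in KO, which was 71.7% to 79.2% of the counts of the window. The genotypes overlapped at this domain (log2 ratio −0.04, SE 0.24).

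Tigit had 2 promoter peaks of near equal level. The peak over the start (chr16:43663382-43666370) held 80.5 and 80.6 CPM in Ctrl and 111.0 and 102.1 CPM in KO, so that each KO library exceeded each Ctrl library. The peak just inside the gene (chr16:43658536-43663098) held 97.3 and 67.6 CPM in Ctrl and 103.2 and 100.9 CPM in KO, again without overlap. Together the promoter peaks held 53.6% to 59.6% of the window.

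At Btla, 53.3% to 56.5% of the counts lay in promoter peaks and 36.7% to 39.0% in the gene body. Its main promoter peak (chr16:45222412-45225380) held 57.9 and 50.3 CPM in Ctrl and 51.4 and 57.5 CPM in KO, so the genotypes overlapped fully. They also overlapped at the promoter peaks before it (chr16:45220568-45221728, log2 ratio 0.56, SE 0.55) and after it (chr16:45225843-45228253, log2 ratio −0.08, SE 0.35).

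Lag3 lies beside Cd4, the co-receptor of helper T cells, and its window was mostly that of its neighbours. Peaks within 3 kb of a start of Cd4, Ptms or Mlf2 held 55.8% to 67.8% of the counts, and a 6542-bp peak at the Cd4 start alone (chr6:124882693-124889234) held 99.5 and 152.1 CPM in Ctrl and 111.8 and 136.8 CPM in KO. The 4 promoter peaks of Lag3 itself held 15.4% of the counts in Ctrl 1 (the lowest share) and 24.6% in KO 1 (the highest).

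Havcr2 showed weak peaks. Its peak over the start (chr11:46454113-46455251) held 10.4 and 8.63 CPM in Ctrl and 12.7 and 11.3 CPM in KO. A second promoter peak (chr11:46456037-46456457) held 3 and 8 counts in Ctrl against 4 and 19 in KO and was not tested. The strongest peak of its window was at the start of Med7, a Mediator subunit (22.6 and 24.4 CPM in Ctrl, 28.3 and 22.0 CPM in KO). Peaks near Med7 held 31.1% to 40.1% of the counts.

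Cd160 had no peak within 3 kb of either annotated start, so the promoter sequence shown above lay outside the peak set. Its single gene body peak held 3, 17, 4 and 9 counts in Ctrl 1, Ctrl 2, KO 1 and KO 2 and was too low to be tested in a fit of promoter and gene body counts. The flanks held 89.0% to 95.6% of the counts of the window. A peak about 18 kb upstream (chr3:96846900-96848683) took 40.6% to 74.7% of the window, with 19.9 and 18.7 CPM in Ctrl and 22.0 and 17.0 CPM in KO.

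Of the ectoenzymes, Nt5e had a strong 5631-bp promoter peak (chr9:88325839-88331469) with 127.6 and 117.6 CPM in Ctrl and 109.5 and 132.3 CPM in KO. A further 18 peaks through the gene body held 48.0% to 54.3% of its counts. Entpd1 differed, with 72.6% to 81.3% of its counts in the gene body and 17.0% to 27% in promoter peaks. At its first start, which is shared with Tctn3 on the other strand, the peak held 12.7 and 4.17 CPM in Ctrl and 10.4 and 7.19 CPM in KO. The peak at the second start (chr19:40659769-40662919) was stronger in each library (46.6 and 27.7 CPM in Ctrl, 45.5 and 46.5 CPM in KO), and it covered 1 of the 250 bases printed for that start. The strongest Entpd1 peak lay in the gene body (chr19:40678099-40680965), with 49.8 and 43.2 CPM in Ctrl and 49.6 and 45.8 CPM in KO.

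Ebi3 spans only 4.38 kb, and peaks within 3 kb of a start of Zfp119b, Yju2 or Shd held 79.1% to 85.3% of its window, a share that includes peaks which are also near the Ebi3 start. Its own main promoter peak (chr17:55952199-55954561) held 27.1 and 34.5 CPM in Ctrl and 42.8 and 41.9 CPM in KO. At Fgl2 the strongest of 3 promoter peaks (chr5:21371751-21375566) held 33.5 and 36.6 CPM in Ctrl and 52.5 and 46.5 CPM in KO. In both genes the KO libraries lay above the Ctrl libraries at this peak, without a difference past the test (adjusted p = 0.998 in edgeR for each). The other Fgl2 promoter peaks overlapped between the genotypes, with 13.6 and 8.04 CPM in Ctrl and 10.1 and 10.1 CPM in KO upstream (chr5:21369914-21370946, log2 ratio −0.08). Inside the gene (chr5:21375580-21376022) they were 3.17 and 4.17 CPM in Ctrl and 2.24 and 5.75 CPM in KO (log2 ratio 0.14). A small Ebi3 promoter peak upstream (chr17:55951137-55951552) held 4.52 and 3.87 CPM in Ctrl and 7.45 and 5.03 CPM in KO.

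**Figure D2:**
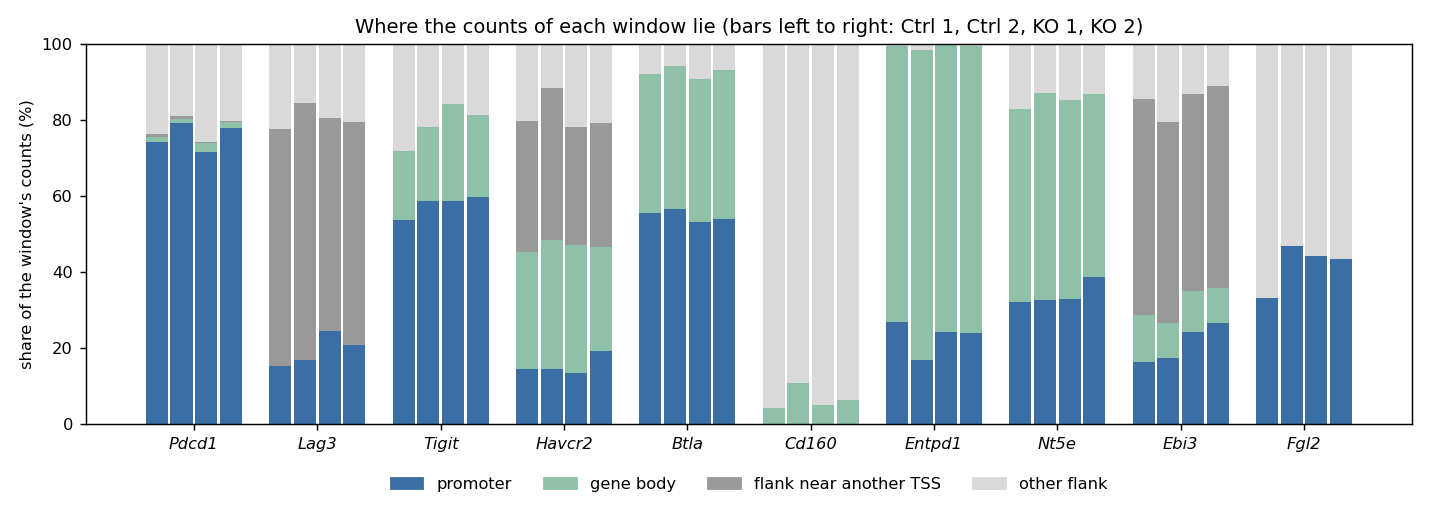
Share of each window's counts (%) in promoter peaks, gene body peaks, flank peaks within 3 kb of another gene's start (TSS) and other flank peaks, with a bar for each of the 4 libraries. Promoter peaks hold 71.7% to 79.2% at Pdcd1 and none at Cd160, and the gene body holds 72.6% to 81.3% at Entpd1.

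KO was then compared with Ctrl over whole windows, to ask how loss of Setd2 bears on the mark at these genes, by the quasi-likelihood test of edgeR with no covariate and with Benjamini-Hochberg adjustment over 16106 protein-coding gene windows. No member window passed the test: 0 of 10 were called at an adjusted p under 0.05, where 0.0% of all windows were called, and 0 of 10 had an unadjusted p under 0.05, where 2.54% of all windows did. DESeq2 likewise called none of the 10. In pooled cells, fewer cells carrying the mark and less of the mark per cell cannot be told apart. In KO 6 windows were higher and 4 lower, with a median log2 ratio of 0.12 against −0.01 over windows of all levels. A loess offset, which adjusts the ratio for the level of a window, gave −0.19 for Pdcd1, 0.02 for Lag3 and 0.13 for Tigit. It gave −0.09 for Ebi3, −0.32 for Nt5e, 0.06 for Btla and 0.15 for Entpd1. For Havcr2 it gave 0.33 and for Cd160 −0.20, both above their values without it. The part of level in the median of 0.12 was not tested. Ctrl and KO libraries were fully separated at 4 of the 10, with KO above at Tigit, Havcr2 and Entpd1 and KO below at Nt5e, where 28.7% of all windows were separated.

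The Tigit window held 331.6 and 252.4 CPM in Ctrl and 364.0 and 340.2 CPM in KO. Both KO libraries were higher than both Ctrl libraries, but the Ctrl libraries differed more from each other than KO 2 did from Ctrl 1 (log2 ratio 0.27, SE 0.23, unadjusted p = 0.264 in edgeR, adjusted p = 1.0). The Entpd1 window held 224.4 and 194.0 CPM in Ctrl and 253.7 and 237.7 CPM in KO, a log2 ratio of 0.23 (SE 0.22). Without Ctrl 2 the Tigit value was 0.09 and without Ctrl 1 it was 0.47. The Havcr2 window held 80.1 and 75.0 CPM in Ctrl and 104.3 and 81.7 CPM in KO, where KO 2 lay just above the higher Ctrl library (log2 ratio 0.26, SE 0.25). Without KO 1 it was 0.06, and without KO 2 it was 0.40.

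Nt5e was the member with both KO libraries below both Ctrl libraries. Its window held 397.2 and 358.6 CPM in Ctrl, and 331.2 and 340.7 CPM in KO (log2 ratio −0.17, SE 0.21, unadjusted p = 0.438 in edgeR, adjusted p = 1.0). Of its 20 tested peaks 16 were lower and 4 higher in KO, none of them called. Entpd1, the enzyme that acts before it, had 11 of 14 tested peaks higher, also with none called. Peaks of a gene come from the same libraries and are not independent, so these counts are no test. The median log2 ratio over all tested peaks was −0.01.

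The remaining windows overlapped between the genotypes. Pdcd1 held 486.3 and 412.8 CPM in Ctrl and 468.0 and 424.8 CPM in KO, so that replicate 1 was the higher library in each genotype. Its log2 ratio was −0.01 (SE 0.21). Lag3 held 273.7 and 320.5 CPM in Ctrl and 316.3 and 344.5 CPM in KO, a log2 ratio of 0.15 (SE 0.22), which ran from 0.04 without Ctrl 1 to 0.28 without Ctrl 2. Without peaks near the starts of its neighbours the Lag3 value was 0.45, with an adjusted p of 1.0 in edgeR.

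Btla held 178.7 and 146.4 CPM in Ctrl, and 170.6 and 176.1 CPM in KO (log2 ratio 0.09, SE 0.23). Cd160 held 30.8 and 46.1 CPM in Ctrl and 29.4 and 33.3 CPM in KO, with Ctrl 2 apart from the other libraries (log2 ratio −0.30, SE 0.34). Ebi3 held 220.3 and 227.7 CPM in Ctrl and 238.8 and 202.5 CPM in KO, with the KO libraries on either side of Ctrl (log2 ratio −0.02, SE 0.22). At Fgl2, with 150.7 and 104.2 CPM in Ctrl and 146.4 and 143.5 CPM in KO, Ctrl 2 was the low library (log2 ratio 0.19, SE 0.26). Over the 10 windows the SE was 0.21 to 0.34 on the log2 scale, and 5 directions turned when 1 library was left out. Without Ctrl 2 the log2 ratio was −0.04 for Btla, 0.04 for Cd160 and −0.05 for Fgl2. Without KO 2 it was 0.03 for Pdcd1 and 0.06 for Ebi3, and without Ctrl 1 it was 0.10 for Pdcd1.

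**Figure D3:**
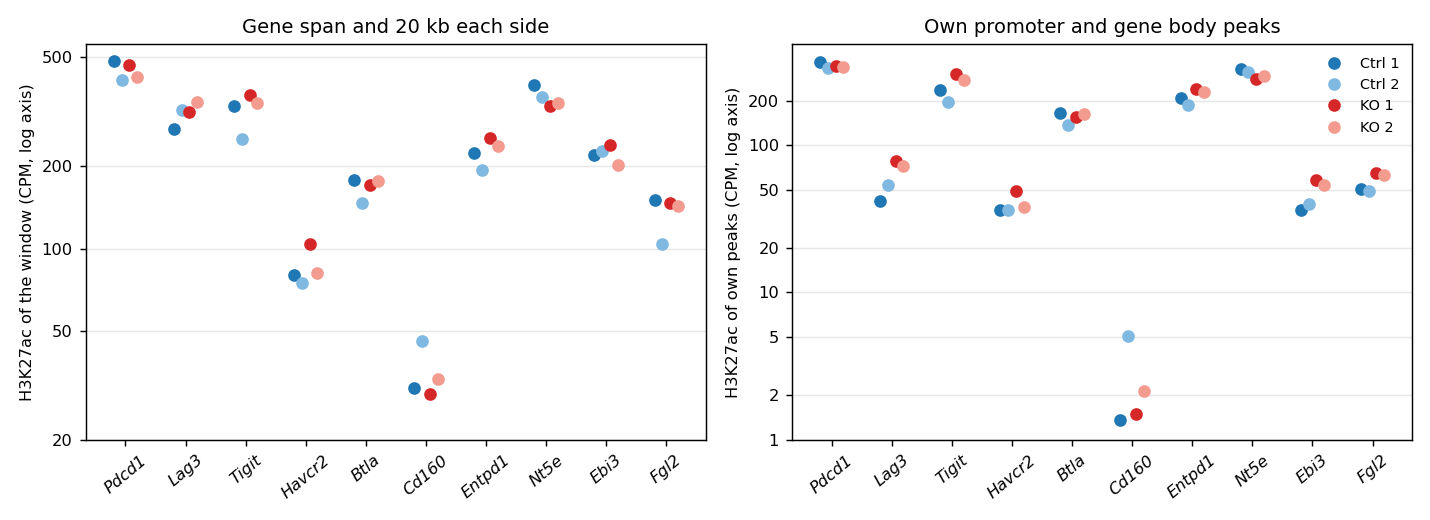
H3K27ac of each member in the 4 libraries (CPM, log axes): left, the whole window; right, the gene's own promoter and gene body peaks. Windows of the genotypes overlap for 6 of 10 members, whereas own peaks of Lag3, Tigit, Havcr2, Entpd1, Ebi3 and Fgl2 show KO (red) wholly above Ctrl (blue).

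Because windows of Lag3 and Ebi3 were mostly neighbouring promoters, the counts of each gene's own promoter and gene body peaks were also summed, with each peak given to 1 gene. Of 9 members tested, 7 were higher and 2 lower in KO, with a median log2 ratio of 0.26. Over 12744 genes of all levels the median was −0.02, and 48.2% were higher. Each KO library exceeded each Ctrl library at 6 members and fell short of it at 1 (Nt5e), where 30.7% of all genes were separated one way or the other. None was called (smallest adjusted p = 1.0 in edgeR), and 1 of 9 had an unadjusted p under 0.05, where 3.26% of all genes did.

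That member was Lag3. Its own peaks held 42.1 and 53.9 CPM in Ctrl and 77.9 and 71.9 CPM in KO. All KO values lay above the Ctrl values, by more than the Ctrl libraries differed from each other (log2 ratio 0.64, SE 0.27, unadjusted p = 0.0413 in edgeR, adjusted p = 1.0).

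Ebi3 was next in size, with 36.2 and 39.6 CPM in Ctrl, and 57.8 and 54.1 CPM in KO (log2 ratio 0.56, SE 0.27, unadjusted p = 0.0703 in edgeR, adjusted p = 1.0). Tigit held 238.0 and 197.6 CPM in Ctrl, and 306.6 and 276.7 CPM in KO (log2 ratio 0.42, SE 0.21), and Fgl2 50.2 and 48.8 CPM in Ctrl, and 64.8 and 62.3 CPM in KO (log2 ratio 0.36, SE 0.26). In all 3 genes the KO libraries were the higher ones. The value of Ebi3 differed in sign from that of its window, −0.02. It rests on the 3 Ebi3 promoter peaks alone, as the Ebi3 gene body peak (log2 ratio −0.12) was given to Yju2. Over all peaks of the gene span the Ebi3 value was 0.31. In the window without peaks near the start of another gene it was −0.29.

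For the others the log2 ratio was 0.26 (SE 0.29) for Havcr2, 0.25 (SE 0.21) for Entpd1 and 0.08 (SE 0.23) for Btla. It was −0.03 (SE 0.19) for Pdcd1 and −0.15 (SE 0.20) for Nt5e. None of these 5 exceeded 1.5 times its SE. The Entpd1 value leaves out the peak at its first start (log2 ratio 0.10, SE 0.56), which was given to Tctn3. Over all peaks of the gene span the Entpd1 value was 0.24.

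**Figure D4:**
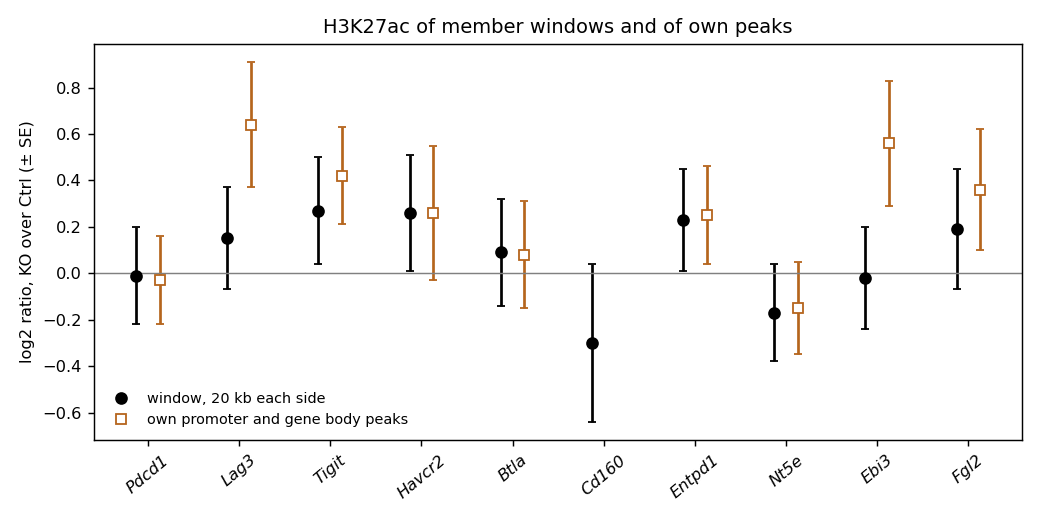
Log2 ratio of KO to Ctrl with its SE for each member. Black circles are the whole window. Open squares are its own promoter and gene body peaks, with each peak given to 1 gene (Cd160 was not tested). The 2 measures part most at Ebi3 (−0.02 and 0.56) and Lag3 (0.15 and 0.64).

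Single peaks were tested in a fit over 74550 peaks, of which 103 lay in member windows, while 37 member peaks had too few counts. In this fit a peak's own spread between libraries did not enter its p-value. Of the 103, 56 were higher and 47 lower in KO. Of them 0 were called, where 0.00134% of all tested peaks were called. DESeq2 also called none of the member peaks. At an unadjusted p under 0.05 there were 3 (2.91%), where 4.24% of all peaks had such a p. Ctrl and KO were separated at 34 (33.0%), where 33.3% of all peaks were. Across all places the members thus stood at the background.

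The split by place was uneven. Of 21 tested promoter peaks 17 were higher and 4 lower in KO, with a median log2 ratio of 0.40, while 55.8% of all 17669 tested promoter peaks were higher and the median was 0.06. Each KO library exceeded each Ctrl library at 10 of the 21, where 18.8% of all promoter peaks did so, and none lay below. Gene body peaks were split 21 to 20 (median 0.03) and flank peaks 18 to 23 (median −0.05). The promoter peaks come from 9 genes and up to 4 peaks share a gene, so they are not independent. The number higher fell to 8 of 12 among peaks with at least 50 counts in 2 libraries, where 46.7% of all promoter peaks were higher, and was 13 to 19 of 19 to 21 when a library was left out.

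**Figure D5:**
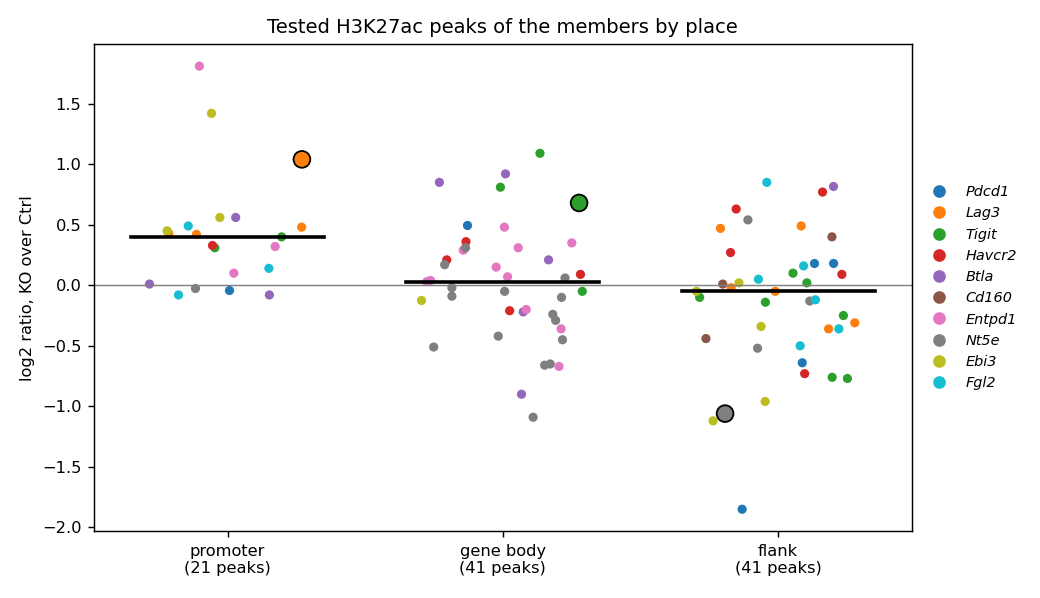
Log2 ratio of KO to Ctrl for the 103 tested member peaks, by place and coloured by gene; black lines are medians, and large outlined points are the 3 peaks with an unadjusted p under 0.05. Most promoter peaks (17 of 21) lie above 0, while gene body and flank peaks are spread about it.

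The 3 peaks with an unadjusted p under 0.05 lay at Lag3, Tigit and Nt5e. Their central 200 bases are shown on the strand of the gene (from the GRCm38 genome), with the same motif words in capitals.
Lag3 peak, chr6:124908026-124908225, minus strand: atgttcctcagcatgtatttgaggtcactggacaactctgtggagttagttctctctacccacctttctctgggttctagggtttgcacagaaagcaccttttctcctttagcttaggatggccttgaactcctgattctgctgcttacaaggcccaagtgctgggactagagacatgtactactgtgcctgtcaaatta
Tigit peak, chr16:43655162-43655361, minus strand: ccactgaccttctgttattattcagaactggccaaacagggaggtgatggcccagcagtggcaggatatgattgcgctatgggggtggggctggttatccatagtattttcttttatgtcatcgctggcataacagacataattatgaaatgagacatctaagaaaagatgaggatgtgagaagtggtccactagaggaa
Nt5e peak, chr9:88380244-88380443, plus strand: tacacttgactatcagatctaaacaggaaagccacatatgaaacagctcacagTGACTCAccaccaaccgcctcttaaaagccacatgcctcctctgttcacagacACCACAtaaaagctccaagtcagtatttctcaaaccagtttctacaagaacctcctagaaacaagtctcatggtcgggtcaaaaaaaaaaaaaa

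The Lag3 peak (chr6:124907174-124909079, 1906 bp over exon and intron sequence within the gene, classed as promoter at 2626 bp from the start) held 27 and 46 counts in Ctrl against 80 and 100 in KO, or 12.2 and 13.7 against 29.8 and 24.0 CPM. Each KO library was well above each Ctrl library (log2 ratio 1.04, SE 0.40, unadjusted p = 0.00995 in edgeR, adjusted p = 0.998), and the value was 0.87 to 1.16 when a library was left out. None of the searched words was in the stretch shown, in which 85 of 200 bases are masked as repeats in the genome file. The other 3 promoter peaks of Lag3 had log2 ratios of 0.42 to 0.48 (SE 0.45 to 0.46).

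The Tigit peak (chr16:43653465-43657059, 3595 bp, intronic) held 86 and 126 counts in Ctrl against 186 and 224 in KO, or 38.9 and 37.5 against 69.3 and 53.7 CPM. The Ctrl libraries agreed closely and both KO libraries were higher (log2 ratio 0.68, SE 0.31, unadjusted p = 0.0277 in edgeR, adjusted p = 0.998). It held none of the words in the stretch shown, of which 44 bases are masked as repeats.

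The Nt5e peak (chr9:88379769-88380919, 1151 bp, outside the gene and 52572 bp downstream of its start) held 58 and 44 counts in Ctrl against 24 and 40 in KO, or 26.2 and 13.1 against 8.94 and 9.58 CPM. Ctrl 1 stood apart from the other 3 libraries here (log2 ratio −1.06, SE 0.46, unadjusted p = 0.0206 in edgeR, adjusted p = 0.998). Left-out libraries gave −1.49 to −0.50. Its stretch held TGANTCA, here as TGACTCA, which is in 6.43% of the central 200 bases of all tested peaks, and TGTGGT as ACCACA (16.9%).

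At Fgl2 the peak with the smallest p was its main promoter peak, described above (log2 ratio 0.49, SE 0.32). Some other peaks with the smallest p of their window were small. An Ebi3 peak inside the gene (chr17:55954772-55955456) held 10 and 4 counts in Ctrl against 20 and 30 in KO (log2 ratio 1.42, SE 0.75, unadjusted p = 0.0581 in edgeR). A 260-bp Entpd1 peak before the second start (chr19:40658918-40659177) held 3 and 4 counts in Ctrl against 15 and 15 in KO (log2 ratio 1.81, SE 1.13), and a Pdcd1 peak about 18 kb upstream (chr1:94070656-94071141) held 12 and 13 counts in Ctrl against 2 and 7 in KO (log2 ratio −1.85, SE 1.15). Ctrl and KO were separated in each of these 3, at counts that leave the fold change poorly determined. The genotypes overlapped in CPM at that of Havcr2 (chr11:46448339-46448709, log2 ratio 0.77, SE 0.73) and of Cd160 (chr3:96778446-96778913, log2 ratio −0.44, SE 0.94). At that of Btla (chr16:45233233-45233890) Ctrl held 2.26 and 8.63 CPM against 10.8 and 9.82 CPM in KO (log2 ratio 0.85, SE 0.57).

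The partners of the members were counted as 6 lists of 49 genes, of which 48 could be tested. Of these 35 were higher and 12 lower in KO, while 49.3% of all windows were higher. None was called, where 0.0% of all windows were, and 1 of 48 had an unadjusted p under 0.05, where 2.54% of all windows did. The median log2 ratio was 0.14, against −0.01 over windows of all levels. How far this lean follows the level of the windows was not tested. The lean was not particular to these lists, as windows of all 7 T cell and Treg genes named above were higher too (median 0.24). Of those genes, Ctla4 and Il2ra are also in the partner lists.

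Among 11 other inhibitory receptors 10 were higher and 1 lower (median 0.16). Ctla4, the receptor by which Treg cells take CD80 and CD86 from other cells, held 631.6 and 679.7 CPM in Ctrl and 849.5 and 949.0 CPM in KO. Each KO library exceeded each Ctrl library (log2 ratio 0.46, SE 0.19, unadjusted p = 0.0423 in edgeR, adjusted p = 1.0).

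Of 9 tested genes for ligands of the receptors 5 were higher and 4 lower (median 0.01), and Fgl1 had no peak. Cd274, which encodes the PD-1 ligand PD-L1, held 167.4 and 194.3 CPM in Ctrl and 229.5 and 264.5 CPM in KO, without overlap (log2 ratio 0.45, SE 0.22, unadjusted p = 0.0740 in edgeR). Pvr, a TIGIT ligand, held 172.8 and 136.6 CPM in Ctrl and 178.1 and 177.1 CPM in KO, a log2 ratio of 0.20 (SE 0.23).

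The 6 genes of receptor signalling were split 4 to 2 (median 0.24). The adaptor gene Grb2 held 621.2 and 840.1 CPM in Ctrl and 753.0 and 1122.5 CPM in KO, overlapping. Ptpn6, which encodes the phosphatase SHP-1, held 414.9 and 394.9 CPM in Ctrl and 449.0 and 536.5 CPM in KO, with KO above.

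In the adenosine pathway 5 of 8 genes were higher and 3 lower (median 0.10). Adora2a, the gene of the adenosine receptor of T cells, held 494.0 and 533.3 CPM in Ctrl, and 533.9 and 591.8 CPM in KO (log2 ratio 0.13, SE 0.20), so KO 1 was level with Ctrl 2. Adk, the kinase that turns adenosine back into AMP, held 150.2 and 169.3 CPM in Ctrl, and 161.0 and 196.0 CPM in KO (log2 ratio 0.16, SE 0.23).

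Of 7 partners of IL-35 and FGL2 4 were higher and 2 lower (median 0.29). Il12a, the other subunit of IL-35, held 37.6 and 30.7 CPM in Ctrl and 55.5 and 37.4 CPM in KO, and Il27, the other subunit of IL-27, held 45.2 and 56.8 CPM in Ctrl and 57.8 and 75.0 CPM in KO. Il12a overlapped between the genotypes and Il27 did not, by a narrow gap. Of the 8 peaks of the Il12a window, 1 was a promoter or gene body peak of Il12a itself. That peak held 4.52 and 4.17 CPM in Ctrl and 4.47 and 5.27 CPM in KO. The log2 ratio of Il27 was 0.38, and −0.63 without peaks near the start of another gene.

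All 7 other suppressor molecules were higher in KO (median 0.22), none of them past the test. The lectin gene Lgals1 held 97.7 and 158.3 CPM in Ctrl and 131.2 and 204.6 CPM in KO, where replicate 2 was the higher library in both genotypes. Il2ra, the high-affinity IL-2 receptor chain, held 456.5 and 479.4 CPM in Ctrl and 542.5 and 567.6 CPM in KO, without overlap (log2 ratio 0.25, SE 0.20).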

How the data were processed

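Per the methods of the study, the authors trimmed reads, aligned them with Bowtie2 to mm10, kept uniquely mapped reads, removed duplicates, called peaks with MACS2 against IgG, merged them with bedtools and counted reads per merged peak. Tool versions are not given in the sources used here. The deposited values are raw counts for 4 libraries. Peaks were called on the same libraries that were compared, and both mates of a pair may have been counted, so fewer fragments may lie behind each count.

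Counts were summed per gene window (GENCODE M21 basic, protein-coding), and each window or peak in which 2 or more libraries had 10 or more counts was tested with edgeR 4.0.16 in R 4.3.3 (glmQLFit, TMM factors of the peak table, no covariate, Benjamini-Hochberg over all windows or all peaks). The SE was derived from the fold change and the F statistic. For peaks the prior degrees of freedom came out as infinite, so a peak's own replicate spread did not enter its test. Libraries of a genotype differed by more than sampling noise, and all 4 were kept. Code was tested on simulated data. Percentages of counts are shares within a library, and counting error is only part of their spread.

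All 10 members were named, with their promoter peaks and the peak of highest mean CPM or smallest p, and from partner lists the genes past an unadjusted p of 0.05 or else the 2 with the smallest p. Members and lists were chosen with earlier results of these data known. Sequences are the 250 bases before RefSeq starts and the central 200 bases of peaks, and stretches overlapping an untranslated region were not printed. Alternatives were DESeq2 1.42.0, other scalings, count minimums and window sizes, a robust fit, halved counts, windows without neighbouring promoters, the replicate number as a block, and leaving out each library.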

Additional observations from a re-analysis of the deposited data

How the results depend on the processing

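With 2 pools per genotype, the SE was 0.21 to 0.34 (log2) per member window. This is no detection limit, as larger differences also went uncalled, such as Lag3 over its own peaks (0.64, SE 0.27). Of 507 recomputed single values, 483 kept their direction and side of the threshold. The sign turned for Pdcd1 (0.10 without Ctrl replicate 1, 0.03 without KO replicate 2, 0.01 with 10 kb flanks), Btla (−0.04), Cd160 (0.04) and Fgl2 (−0.05) without Ctrl replicate 2, and Adk (−0.02) and Lgals1 (−0.01) without KO replicate 2. Ebi3 was at 0.06 without KO replicate 2, 0.31 and 0.05 with 0 and 10 kb flanks, and 0.56 over its own peaks, where Adk was at −0.04. Setd2 was at 0.01 with 50 kb flanks, Adora2a at −0.07 with a loess offset and Il27 at −0.63 without peaks near another start. Over the 4 left-out libraries the log2 values ran from −0.12 to 0.10 for Pdcd1, −0.04 to 0.24 for Btla, −0.56 to 0.04 for Cd160, −0.16 to 0.06 for Ebi3, −0.05 to 0.47 for Fgl2, −0.02 to 0.28 for Adk and −0.01 to 0.79 for Lgals1. The single peak called over the whole table, which is no member, was lost (0 called higher) with any count above 0, at least 50 counts, DESeq2 and halved counts, and 0 to 1 were called when a library was left out. The number of member promoter peaks higher in KO was 13 to 19 without a library and 8 at the minimum of 50 counts. The causes were not tested.

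The labels number the libraries 1 and 2 in both genotypes without saying what a number marks. The mice were littermates, but the sources used here do not say which pools shared a litter, so whether the numbers pair the libraries could not be settled. Deviations of same-numbered libraries correlated at r = 0.24 over peaks and 0.519 over windows. The chi-square per degree of freedom was 4.77 and 9.99 for same-numbered libraries, 11.8 and 15 for libraries of a genotype, and 20.6 and 12.4 for the other pairs. With the replicate number as a block, 1 residual degree of freedom is left, and 830 windows were called higher and 802 lower, and 152 and 59 peaks. Of the member windows 1 was then called higher, Tigit (0.29, adjusted p = 0.0284 in edgeR), and the windows of Setd2, Ctla4, Cd274, Grb2, Ptpn6, Lgals1 and Il2ra were also called.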
